A study of Homo sapiens with 9 samples.

Results

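The genes described here are 10 genes of the mucin and goblet-cell secretory programme. They were chosen by name with earlier results of these data known. Their counts beside shares over all genes are therefore descriptions with no test. The 10 are the mucin genes MUC1, MUC5AC, MUC5B, MUC13 and MUC16, the secretory-pathway genes AGR2 and AGR3, the transcription factor genes SPDEF and FOXA3, and TCN1. All 10 were found among the 62257 rows of the deposited gene tables by their Ensembl identifiers. Their RNA was measured by sequencing in A549, a widely used epithelial line derived from a human lung adenocarcinoma, after 96 h of treatment. Cells of the DDP_apoEV group were given apoptotic extracellular vesicles (apoEVs), membrane-enclosed particles that cells release as they die, collected after apoptosis was set off with the DNA-crosslinking drug cisplatin. Cells of the STS_apoEV group were given vesicles from apoptosis set off with staurosporine, which blocks many protein kinases, and control cells received phosphate-buffered saline. There were 9 libraries, 3 in each of 3 groups. The sources used here do not give the vesicle dose or the cells that shed the vesicles, all groups are 1 cell line, and nothing in the labels ties the replicates to separate cultures. Replicate spread, and every p-value based on it, may therefore be partly or wholly technical.

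Mucins are large glycoproteins whose serine- and threonine-rich stretches carry dense O-linked sugars. MUC5AC and MUC5B are secreted and form the gel of airway mucus, whereas MUC1, MUC13 and MUC16 span the membrane of epithelial cells. In goblet cells the protein disulfide isomerase family member AGR2 acts in the endoplasmic reticulum on the folding of mucins, and SPDEF and FOXA3 are transcription factors that drive goblet-cell differentiation in mouse airways. Mucin genes are expressed by many adenocarcinomas, so their RNA alone does not mark a tumour line as goblet-like.

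Total counts per library ran from 15949255 to 16526399 in DDP_apoEV, from 13799950 to 14816996 in STS_apoEV and from 14356195 to 15492993 in control. Epithelial markers (EPCAM, CDH1, KRT7, KRT8, KRT18 and KRT19) summed to between 7009 and 7566 CPM (counts scaled to a common library size) in DDP_apoEV, 7416 and 8735 in STS_apoEV, and 11180.0 and 12360.0 in control, and all 6 were tested. The sums of both vesicle groups lay below every control library. Airway basal markers summed to 14.5 to 16.8 CPM in DDP_apoEV, 33.3 to 38.3 in STS_apoEV and 14.3 to 14.4 in control, with 3 of 6 tested and KRT14 at 0 in every library. Leukocyte markers summed to 11.9 to 12.9, 15.6 to 21.5 and 8.69 to 13.4 CPM in the same order, with 2 of 7 tested and CD14 holding 88.9% of the sum. Ciliated markers (5 of 8 tested, TEKT1 at 0) summed to 16.4 to 19.9 CPM in DDP_apoEV, 29.1 to 32.6 in STS_apoEV and 19.2 to 26.7 in control. Club-cell markers (1 of 5 tested) summed to 0.50 to 1.21, 0.0675 to 0.421 and 1.98 to 2.64 CPM in the same order, and alveolar type 2 markers (2 of 8, SFTPA1 at 0) to 19.4 to 24.4, 25.5 to 31.9 and 25.7 to 29.2 CPM. Endothelial markers (2 of 5) summed to 1.65 to 1.83, 2.53 to 4.32 and 1.78 to 2.08 CPM, and fibroblast markers (1 of 6) to 1.89 to 2.54, 3.17 to 3.85 and 2.64 to 3.51 CPM. STS_apoEV libraries lay above every control library for basal, leukocyte, ciliated and endothelial sums and below them for the club-cell sum. DDP_apoEV libraries lay below every control library for the club-cell, alveolar type 2 and fibroblast sums. They lay barely above them for the basal sum (lowest 14.49 CPM, against a highest of 14.36 in control). Several sums rest mostly on 1 gene. CYP2F1 held 91.7% of the club-cell sum, ABCA3 91.3% of the alveolar type 2 sum, COL1A1 73.5% of the fibroblast sum and KRT15 61.3% of the basal sum. The part of these shifts in the results was not tested. In bulk samples fewer cells expressing a gene and less RNA per cell cannot be told apart.

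The genes differed widely in level. On the FPKM scale (fragments per kilobase of gene, scaled by library size), which allows genes to be compared per length, AGR2 was far above the rest. Its mean level was 98.0 ± 21.3 FPKM in DDP_apoEV, 231 ± 17.1 in STS_apoEV and 240.2 ± 7.72 in control (SD, n = 3 each), above 97.9%, 99.1% and 99.2% of the 16947 genes tested. AGR2 alone made up 81.3% to 85.3% of the summed FPKM of the 10 genes in DDP_apoEV libraries, 75.3% to 78.3% in STS_apoEV and 81.6% to 83.4% in control. In control cells SPDEF followed at 17.1 ± 0.584 FPKM, and then MUC13 at 12.5 ± 1.36 and MUC5B at 12.4 ± 1.66, which did not differ beyond their spread. TCN1 averaged 6.31 ± 1.37 FPKM, FOXA3 1.79 ± 0.583 and MUC1 1.04 ± 0.315 in control, where the ranges of FOXA3 and MUC1 overlapped. MUC5AC (0.0431 ± 0.0272 FPKM) and MUC16 (0.0168 ± 0.00720 FPKM) were near the floor of the data in control. AGR3 had 0, 2 and 0 counts in DDP_apoEV, 4, 5 and 1 in STS_apoEV and 0, 0 and 4 in control, too few to pass the expression filter, and is not compared further. With STS_apoEV TCN1 stood second, at 24.0 ± 1.05 FPKM.

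**Figure D1:**
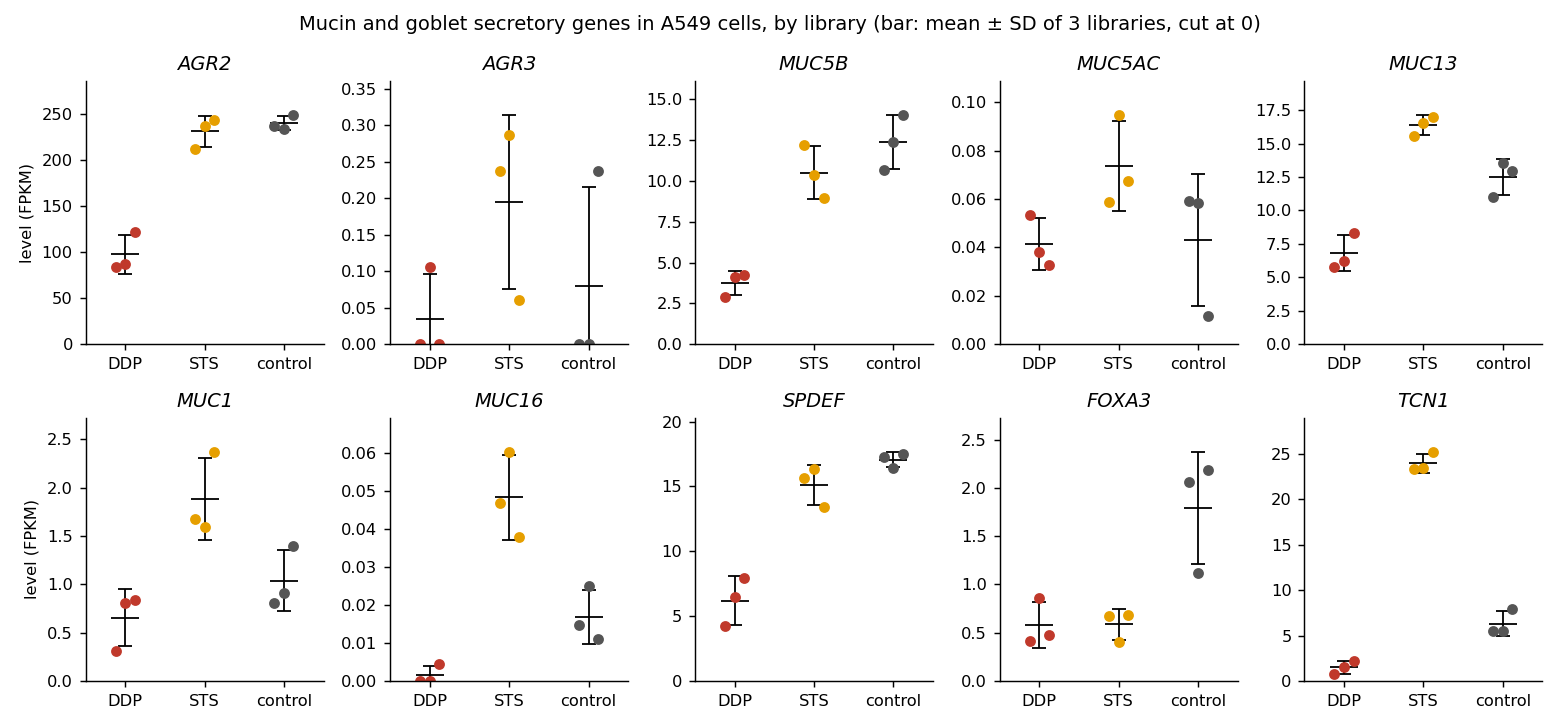
Level of each of the 10 genes in FPKM (vertical axes, linear, each panel with its own scale) in the DDP_apoEV, STS_apoEV and control libraries; points are libraries and bars the mean ± SD of 3, cut at 0. AGR2, MUC5B, MUC13, SPDEF and TCN1 are lowest with DDP_apoEV, TCN1 is highest with STS_apoEV (23.3 to 25.2 FPKM), and FOXA3 is low with both vesicle types.

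Cisplatin-death vesicles were compared with saline first. Of the 10 genes 9 were tested, 7 fell, 0 rose and 2 did not pass, where 8.32% of all genes tested were called lower, 7.16% higher and 15.5% in either direction. The calls are those of edgeR's quasi-likelihood test at an adjusted p under 0.05, and every adjusted p in the text is from that test unless another is named. Median log2 fold change over the 9 genes was −1.47, against −0.0033 over all genes tested. The libraries of the groups did not overlap for 7 of the 9, where 32.2% of all genes did not. MUC16 passed the expression filter through its STS_apoEV libraries, so its call in a comparison with that group is partly fixed by the filter. The counts of genes called in those comparisons, given below, include MUC16. With only DDP_apoEV and control fitted, MUC16 was not tested, and 6 of the 8 genes tested fell.

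Of the secretory-pathway genes, AGR2 (ENSG00000106541, chromosome 7, 16791811 to 16833433, minus strand, hg38 as deposited) stood at 84.2, 87.2 and 122.5 FPKM in DDP_apoEV, against 238, 234 and 249 FPKM in control. Every DDP_apoEV library lay below every control library, with DDP_apoEV replicate 3 nearest to control. AGR2 fell 2.47-fold (log2 fold change −1.30, SE 0.124, adjusted p = 1.93e-05). TCN1 encodes haptocorrin, a vitamin B12-binding glycoprotein of secretory granules and mucosal fluids. It stood at 0.788, 1.5 and 2.15 FPKM in DDP_apoEV, against 5.54, 5.49 and 7.88 FPKM in control. TCN1 (ENSG00000134827, chromosome 11, 59852800 to 59866489, minus strand) fell 4.28-fold, from counts of 19, 37 and 51 in DDP_apoEV libraries against 129, 121 and 173 in control (log2 fold change −2.10, SE 0.236, adjusted p = 6.16e-06).

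The transcription factor genes were lower as well. SPDEF, an ETS-family factor (ENSG00000124664, chromosome 6, 34537802 to 34556333, minus strand), stood at 4.23, 6.44 and 7.93 FPKM in DDP_apoEV, against 17.3, 16.4 and 17.5 FPKM in control, and fell 2.77-fold (log2 fold change −1.47, SE 0.156, adjusted p = 2.29e-06). FOXA3, a forkhead factor (ENSG00000170608, chromosome 19, 45863989 to 45873797, plus strand), stood at 0.410, 0.857 and 0.476 FPKM in DDP_apoEV, against 2.06, 1.12 and 2.19 FPKM in control. FOXA3 fell 3.08-fold (log2 fold change −1.62, SE 0.343, adjusted p = 8.36e-04) on counts of 14 to 30 in DDP_apoEV and 35 to 68 in control. Control replicate 2 lay near the DDP_apoEV libraries, and the call was lost with limma on log2(FPKM + 1) without a filter (adjusted p = 0.0820).

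Among the gel-forming mucins, MUC5B (ENSG00000117983, chromosome 11, 1223066 to 1262172, plus strand) had 2.92, 4.09 and 4.26 FPKM in DDP_apoEV, against 10.7, 12.4 and 14.0 FPKM in control. It fell 3.31-fold (log2 fold change −1.73, SE 0.193, adjusted p = 0.00103). Its neighbour MUC5AC (ENSG00000215182, chromosome 11, 1157953 to 1201138, plus strand) had 15, 11 and 9 counts in DDP_apoEV, against 16, 15 and 3 in control, and was not called (log2 fold change −0.07, SE 0.509, adjusted p = 0.955). The sign of MUC5AC turned without DDP_apoEV replicate 3 (0.08), control replicate 1 (0.23) or control replicate 2 (0.20).

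Of the transmembrane mucins MUC13 and MUC16 were called lower and MUC1 was not called. MUC13 (ENSG00000173702, chromosome 3, 124905442 to 124953819, minus strand) had 5.80, 6.25 and 8.33 FPKM in DDP_apoEV, against 11.0, 13.6 and 13.0 FPKM in control, and fell 1.85-fold (log2 fold change −0.89, SE 0.111, adjusted p = 1.24e-06). MUC16, the gene of the CA125 antigen (ENSG00000181143, chromosome 19, 8848844 to 8981342, minus strand), had 0, 0 and 3 counts in DDP_apoEV, against 10, 16 and 7 in control. Over the summed counts, 3 against 33, the scaled ratio of DDP_apoEV to control was 0.0838 with an exact 95% interval of 0.0165 to 0.267 that covers counting error only. MUC16 was called lower (adjusted p = 0.00179), and its log2 fold change of −3.41 moved to −6.50 without DDP_apoEV replicate 3, the one library of that group with counts. With limma on log2(FPKM + 1) without a filter the MUC16 call was lost (adjusted p = 0.609). MUC1 (ENSG00000185499, chromosome 1, 155185824 to 155192916, minus strand) had 12, 32 and 32 counts in DDP_apoEV, against 30, 32 and 49 in control, with overlapping libraries, and was not called (log2 fold change −0.67, SE 0.329, adjusted p = 0.186). An adjusted p that misses the threshold does not show that the groups did not differ.

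**Figure D2:**
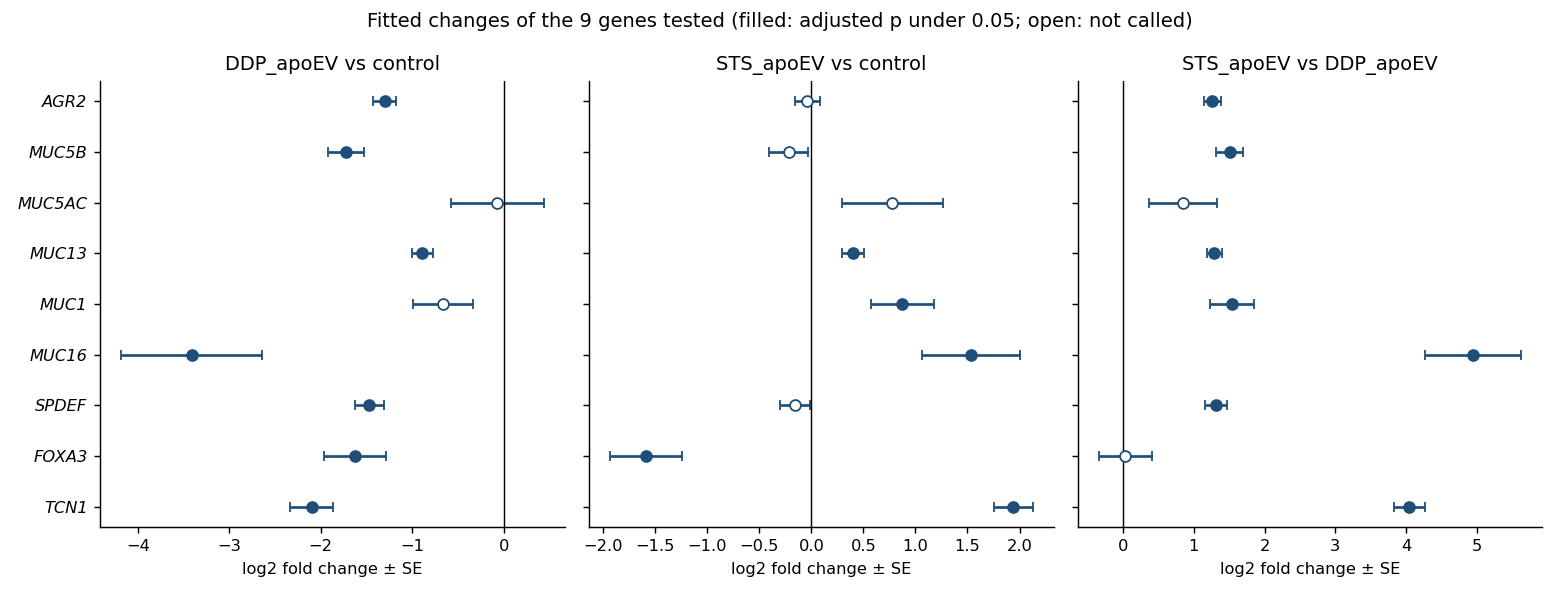
Fitted log2 fold change ± SE (horizontal axes, each panel with its own scale) of the 9 genes tested, for DDP_apoEV against control, STS_apoEV against control and STS_apoEV against DDP_apoEV, filled where the adjusted p is under 0.05. Against control, TCN1 lies at −2.10 with DDP_apoEV and at 1.94 with STS_apoEV, while FOXA3 lies at −1.62 and −1.59.

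Staurosporine-death vesicles were compared with the same saline libraries, so both comparisons share their controls. Of the 9 genes tested 4 rose (TCN1, MUC16, MUC1 and MUC13), 1 fell (FOXA3) and 4 did not pass, where 32.8% of all genes tested were called, 15.9% higher and 16.8% lower. The median log2 fold change was 0.40, against 0.013 over all genes, and the libraries did not overlap for 6 of 9 genes, where 43.3% of all genes did not. The number of genes called went down to 3 without control replicate 1. With limma on log2(FPKM + 1) and a mean FPKM of at least 1, which tested 6 of the genes, 2 were called.

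TCN1 had 23.3, 23.4 and 25.2 FPKM in STS_apoEV, against 5.54, 5.49 and 7.88 FPKM in control. Its 3 STS_apoEV libraries lay close together and far above control. TCN1 rose 3.84-fold (log2 fold change 1.94, SE 0.184, adjusted p = 2.5e-07). Haptocorrin is also made by neutrophils, and the leukocyte marker sums given above were higher in STS_apoEV than in control. Those sums are mostly CD14 (88.9%), and 2 of the 7 leukocyte markers were tested. The part of leukocyte RNA in the TCN1 rise was not tested.

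The transmembrane mucins were higher with STS_apoEV. MUC13 had 15.5, 16.6 and 17.0 FPKM in STS_apoEV, against 11.0, 13.6 and 13.0 FPKM in control, and rose 1.32-fold (log2 fold change 0.40, SE 0.106, adjusted p = 0.00385), a call lost with limma on log2(FPKM + 1) without a filter (0.141). MUC16 had 30, 40 and 24 counts in STS_apoEV, against 10, 16 and 7 in control. The scaled ratio of its summed counts, 94 against 33, was 2.92 with an exact 95% interval of 1.95 to 4.49 for counting error only, and the log2 fold change was 1.53 (SE 0.472, adjusted p = 0.0114). This call was lost without STS_apoEV replicate 2 (adjusted p = 0.0755), control replicate 1 (0.0564) or control replicate 3 (0.0696), and with that limma setting (0.0987). MUC1 had 59, 58 and 82 counts in STS_apoEV, against 30, 32 and 49 in control, and was called higher (log2 fold change 0.87, SE 0.305, adjusted p = 0.0260). The MUC1 call was lost without STS_apoEV replicate 3 (adjusted p = 0.149), control replicate 1 (0.133) or control replicate 2 (0.101), and with limma on log2(FPKM + 1) (0.0567).

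AGR2, SPDEF and MUC5B were not called with STS_apoEV. AGR2 had 212, 238 and 244 FPKM in STS_apoEV, against 238, 234 and 249 FPKM in control (log2 fold change −0.04, SE 0.122, adjusted p = 0.847), and its sign turned without STS_apoEV replicate 1 (0.01). SPDEF had 15.6, 16.3 and 13.4 FPKM in STS_apoEV, against 17.3, 16.4 and 17.5 FPKM in control (log2 fold change −0.16, SE 0.146, adjusted p = 0.451). MUC5B had 12.2, 10.4 and 8.94 FPKM in STS_apoEV, against 10.7, 12.4 and 14.0 FPKM in control (log2 fold change −0.22, SE 0.185, adjusted p = 0.434), with overlapping libraries. Without a filter on low counts MUC5B was called lower there (log2 fold change −0.24, adjusted p = 0.0365). MUC5AC had 15, 25 and 17 counts in STS_apoEV and was not called against control (log2 fold change 0.78, SE 0.484, adjusted p = 0.231). FOXA3 was the one gene of the 9 called lower, at 0.675, 0.404 and 0.685 FPKM in STS_apoEV, against 2.06, 1.12 and 2.19 FPKM in control (log2 fold change −1.59, SE 0.346, adjusted p = 4.79e-04).

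The vesicle types were then compared directly, which is the test of the difference between their responses. Of the 9 genes 7 were higher with STS_apoEV than with DDP_apoEV, 0 were lower and 2 did not pass, where 39.7% of all genes tested were called, 20.2% higher and 19.5% lower. The median log2 fold change was 1.31, against 0.027 over all genes, and libraries did not overlap for 8 of 9 genes, where 47.5% of all genes did not. TCN1 was 16.5-fold higher with STS_apoEV (log2 fold change 4.04, SE 0.219, adjusted p = 1.37e-10), on 512, 532 and 545 counts in STS_apoEV libraries against 19, 37 and 51 in DDP_apoEV. MUC16 had 94 summed counts in STS_apoEV against 3 in DDP_apoEV, a scaled ratio of 34.8 with an exact 95% interval of 11.6 to 172 for counting error only (log2 fold change 4.94, adjusted p = 4.66e-07, and 8.03 without DDP_apoEV replicate 3).

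MUC13 was 2.45-fold higher with STS_apoEV than with DDP_apoEV (adjusted p = 3.31e-10), MUC1 2.91-fold (2.02e-04), MUC5B 2.84-fold (6.69e-04), AGR2 2.40-fold (6.27e-06) and SPDEF 2.48-fold (2.48e-06). FOXA3 had 0.675, 0.404 and 0.685 FPKM in STS_apoEV, against 0.410, 0.857 and 0.476 FPKM in DDP_apoEV, with overlapping libraries. It was not called (log2 fold change 0.03, SE 0.376, adjusted p = 0.953), a value whose sign turned without replicate 1 or 3 of either group (−0.17 and −0.09 without DDP_apoEV replicates 1 and 3, and −0.09 without either STS_apoEV library). MUC5AC was not called either (log2 fold change 0.85, SE 0.482, adjusted p = 0.170).

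The makeup of the mucin RNA differed between the groups. The summed level of the 5 mucins was 9.08, 11.2 and 13.5 FPKM in DDP_apoEV libraries, 29.5, 28.7 and 28.4 FPKM in STS_apoEV and 22.55, 26.9 and 28.4 FPKM in control. MUC13 and MUC5B held nearly all of it. The level of MUC13 was 1.99, 1.53 and 1.96 times that of MUC5B in DDP_apoEV libraries and 1.27, 1.60 and 1.90 times in STS_apoEV, against 1.03, 1.10 and 0.925 times in control. The ratio was higher in every library of both vesicle groups than in any control library, a pattern described after its values were seen and given with no test. MUC5B held 31.6% to 36.6% of the mucin level in DDP_apoEV, 31.5% to 41.3% in STS_apoEV and 45.9% to 49.4% in control.

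**Figure D3:**
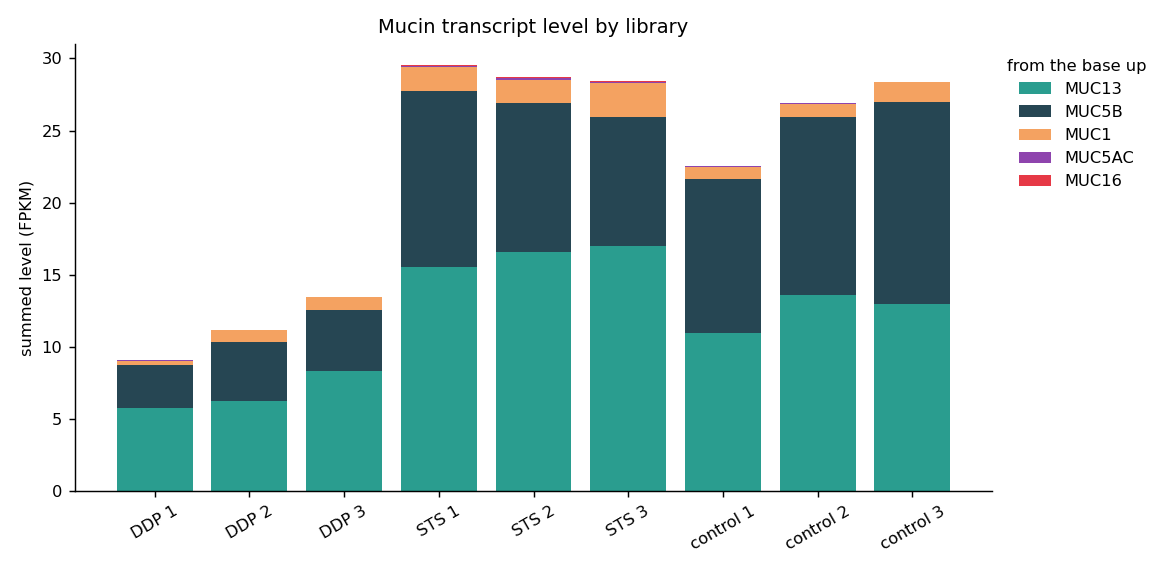
Summed FPKM of the 5 mucin genes in each library (vertical axis, from 0), stacked from MUC13 at the base through MUC5B, MUC1, MUC5AC and MUC16. The DDP_apoEV libraries reach 9.08 to 13.5 FPKM, the STS_apoEV libraries 28.4 to 29.5 and the control libraries 22.55 to 28.4.

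Bases before the RefSeq gene start are shown for 3 genes chosen for their calls: AGR2 and SPDEF, lower with DDP_apoEV and not called with STS_apoEV, and TCN1, lower with one vesicle type and higher with the other. Each is the part of the 250 bases upstream of the RefSeq start (GRCh38.p14) that precedes the first base of a GENCODE exon, on the minus strand, 5′ to 3′, at chr7:16805081-16805249, chr6:34556334-34556579 and chr11:59866576-59866737. Capitals mark matches to the motifs named after the sequences. The RefSeq start of AGR2 lies 28434 bases inside the gene's span in the deposited table, so its bases are not those before the deposited start.
AGR2: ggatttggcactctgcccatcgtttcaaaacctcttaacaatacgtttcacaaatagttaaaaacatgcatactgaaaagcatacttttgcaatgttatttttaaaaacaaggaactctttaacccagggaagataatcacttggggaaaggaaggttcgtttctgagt
SPDEF: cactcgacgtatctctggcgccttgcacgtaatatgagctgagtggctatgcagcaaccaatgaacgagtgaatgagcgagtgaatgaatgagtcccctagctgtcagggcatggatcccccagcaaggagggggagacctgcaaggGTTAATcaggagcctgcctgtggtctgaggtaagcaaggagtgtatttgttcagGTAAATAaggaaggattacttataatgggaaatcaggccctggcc
TCN1: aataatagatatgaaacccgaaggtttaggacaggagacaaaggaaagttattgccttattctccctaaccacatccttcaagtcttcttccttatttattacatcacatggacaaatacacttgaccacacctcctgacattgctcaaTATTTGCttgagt

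The motifs were searched in the whole 250 bases and were the FOXA-type forkhead letters TGTTTAC and likewise TGTTTGC, with the forms TATTTAC and also TATTTGC, all on either strand, the ETS-type letters CAGGATG and likewise CCGGATG on either strand, the HNF1 half-site GTTAAT on either strand, and the TATA box TATAAA on the gene's strand. RefSeq windows were found for 8 of the 10 genes, and not for MUC5AC and MUC5B. SPDEF had a FOXA-type match on the opposite strand and an HNF1 half-site, and TCN1 had a FOXA-type match, a motif found in 10.6% of the 35116 windows of all genes. FOXA3, MUC1 and AGR3 had a TATA box, found in 6.80% of all windows, and MUC13 had an HNF1 half-site on the opposite strand, found in 6.23%. AGR2 matched none of the 4 motifs. None of the 8 genes held CAGGATG or CCGGATG (6.35% of all windows), and no other ETS-type letters were searched. Both MUC16 windows lay outside the gene's span in the deposited table. The windows of AGR2, MUC13 and FOXA3 lay wholly inside the deposited spans of those genes, with RefSeq starts 28434, 19068 and 337 bases inside the deposited starts. The share of G and C was 40.4% for AGR2, 40.0% for TCN1, 50.8% for SPDEF and 75.2% for FOXA3, against a median of 58.0% over all windows.

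Related genes were followed in lists chosen by function with earlier results of these data known. For each list, the share of tested genes called is given as a description with no test. It is set beside the 15.5%, 32.8% and 39.7% of all genes called with DDP_apoEV, with STS_apoEV and between the vesicle types. Of 17 other mucin genes 4 were tested (MUC3A, MUC12, CD164 and OVGP1), while the gel-forming MUC2, MUC6 and MUC19 did not pass the filter. With DDP_apoEV 3 fell and 0 rose (75.0% called, median log2 fold change −0.96), of which 1 was called without DDP_apoEV replicate 2, control replicate 2 or control replicate 3. With only DDP_apoEV and control fitted, 3 of these genes passed the filter and 2 fell. MUC3A passed it through its STS_apoEV libraries, so its calls in comparisons with that group are partly fixed by the filter. OVGP1, a mucin-like oviduct glycoprotein gene, fell to 0.959 ± 0.326 CPM in DDP_apoEV, against 3.12 ± 0.642 in control (adjusted p = 3.32e-04). With STS_apoEV 2 rose and 0 fell (50.0% called, median 0.62). MUC12, a transmembrane mucin gene, rose to 6.43 ± 1.31 CPM in STS_apoEV, against 2.73 ± 0.481 in control (adjusted p = 2.12e-04). The second of these calls, MUC3A, was lost with DESeq2 (adjusted p = 0.0821) and without STS_apoEV replicate 1 (0.116) or 2 (0.202) or control replicate 1 (0.244), 2 (0.0578) or 3 (0.0683), and MUC3A has close copies that may share its reads. All 4 were higher with STS_apoEV than with DDP_apoEV, but the call of CD164, a sialomucin gene, was lost without DDP_apoEV replicate 2 (adjusted p = 0.0543) or STS_apoEV replicate 3 (0.0660).

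Of 26 goblet granule and airway secretory product genes 7 were tested. With DDP_apoEV 5 fell and 0 rose (71.4% called, median −1.63). SLPI, a secreted protease inhibitor of airway mucosa, fell to 6.79 ± 2.09 CPM in DDP_apoEV, against 29.0 ± 2.85 in control (4.27-fold, adjusted p = 2.42e-09). LCN2, a siderophore-binding protein, fell to 10.6 ± 5.01 CPM in DDP_apoEV, against 56.2 ± 6.12 in control (adjusted p = 0.00215), and TFF1, a trefoil peptide co-secreted with mucins, fell 3.09-fold (adjusted p = 3.44e-05). BPIFB1, a secreted airway protein gene, fell to 0.396 ± 0.319 CPM in DDP_apoEV, against 2.72 ± 0.908 in control (adjusted p = 1.03e-04). With STS_apoEV 3 rose and 1 fell (57.1% called, median 0.51). FCGBP, a mucus-associated glycoprotein, rose 3.50-fold (adjusted p = 8.72e-04), and TCN2, the plasma transcobalamin gene and a relative of TCN1, rose to 23.6 ± 2.71 CPM in STS_apoEV, against 11.2 ± 0.884 in control (adjusted p = 3.84e-08). CYP2F1, a club-cell cytochrome P450, fell to 0.233 ± 0.178 CPM in STS_apoEV, against 1.99 ± 0.389 in control (adjusted p = 4.58e-05). CYP2F1 passed the filter through its control libraries, so its calls against control, lower with both vesicle types, are partly fixed by the filter. The counts of genes of this list called against control include CYP2F1. Between the vesicle types 6 were higher and 1, CYP2F1, was lower with STS_apoEV, with SLPI 6.11-fold higher (adjusted p = 1.31e-11). The CYP2F1 call between vesicle types was lost without DDP_apoEV replicate 3 (adjusted p = 0.243), STS_apoEV replicate 2 (0.148) or STS_apoEV replicate 3 (0.0806). With only the 2 vesicle groups fitted, CYP2F1 was not tested, and the 6 genes tested were all higher with STS_apoEV.

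Of 35 genes for enzymes that build O-linked sugars on mucins 28 were tested, and with DDP_apoEV 11 fell, 4 rose and 13 did not pass (53.6% called, median −0.08). ST6GALNAC1, which makes the sialyl-Tn antigen, fell to 0.373 ± 0.221 CPM in DDP_apoEV, against 2.89 ± 0.711 in control (7.58-fold, adjusted p = 9.23e-06). GALNT5, one of the enzymes that start O-glycan chains, fell 1.79-fold (adjusted p = 8.46e-09), ST3GAL1 1.72-fold (2.94e-07) and B4GALT4 1.47-fold (5.66e-07). With STS_apoEV 7 fell, 6 rose and 15 did not pass (46.4% called, median 0.02). B4GALT4 fell 1.65-fold (adjusted p = 1.12e-09), and the galactosyltransferase gene B4GALT1 rose 1.53-fold (adjusted p = 4.04e-05). Between the vesicle types 10 were higher and 5 lower with STS_apoEV (53.6% called). GCNT3, the mucin-type core-branching enzyme, averaged 386 ± 13.1 CPM in STS_apoEV, against 256 ± 4.91 in DDP_apoEV (adjusted p = 1.36e-08).

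Of 21 disulfide and folding factors of the endoplasmic reticulum 19 were tested. With DDP_apoEV 2 fell, 1 rose and 16 did not pass (median −0.06), and the 15.8% called is near the 15.5% of all genes. XBP1, a transcription factor of the unfolded protein response that secretory cells depend on, fell 1.48-fold (adjusted p = 1.91e-06), and the chaperone gene HSPA5 rose 1.24-fold (0.00117). With STS_apoEV 6 rose, XBP1 was the 1 gene called lower and 12 did not pass (36.8% called, against 32.8% of all genes, median 0.13), a count of 7 calls that went down to 2 without control replicate 2 and to 3 without control replicate 1 or STS_apoEV replicate 1, and to 4 without control replicate 3 or STS_apoEV replicate 3. The XBP1 call was lost without STS_apoEV replicate 1 (adjusted p = 0.0641) or control replicate 3 (0.0553). ERN1, the sensor that splices XBP1 RNA, rose to 44.8 ± 5.13 CPM in STS_apoEV, against 21.6 ± 2.66 in control (adjusted p = 1.82e-09).

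Of 28 transcription factor and Notch genes of airway and goblet lineages 20 were tested. With DDP_apoEV 11 fell, 2 rose and 7 did not pass (65.0% called, median −0.54), and 8 were called without control replicate 3. ELF3 and EHF, epithelial ETS-family factors, fell 2.28-fold (adjusted p = 1.68e-13) and 2.23-fold (4.84e-09), SOX9 2.03-fold (1.80e-07) and HES1, a Notch target, 2.60-fold (3.56e-07). FOXA1 and FOXA2, named as forkhead relatives of FOXA3 and not for their rank, had log2 fold changes of −0.37 (adjusted p = 0.0309) and −0.46 (0.0238), calls lost without DDP_apoEV replicate 1 (0.216 and 0.133) or control replicate 3 (0.0592 and 0.134). FOXA1 was also lost without control replicate 2 (0.232), and FOXA2 without control replicate 1 (0.0996) or DDP_apoEV replicate 3 (0.0637). FOXA2 was called lower with STS_apoEV too. That call was lost without STS_apoEV replicate 1 (adjusted p = 0.0764) or 3 (0.0739) or control replicate 1 (0.0557) or 3 (0.0698). With STS_apoEV 7 rose, 6 fell and 7 did not pass (65.0% called, median −0.05). HES1 rose 2.07-fold (adjusted p = 1.67e-06) and TP63, a basal-cell factor, rose to 13.3 ± 1.07 CPM in STS_apoEV, against 2.80 ± 0.845 in control (adjusted p = 1.21e-09). MYBL1 fell 2.56-fold (adjusted p = 2.22e-11). Between the vesicle types 12 were higher and 2 lower with STS_apoEV (70.0% called), with ELF3 at 238 ± 7.64 CPM in STS_apoEV and 94.8 ± 4.84 CPM in DDP_apoEV (adjusted p = 2.67e-15).

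Of 29 granule exocytosis and mucus hydration genes 24 were tested. With DDP_apoEV 10 fell, 0 rose and 14 did not pass (41.7% called, median −0.27), and 6 were called without control replicate 2. UNC13D, a granule priming factor, fell 2.28-fold (adjusted p = 7.48e-11), the granule SNARE gene VAMP8 1.78-fold (1.05e-07) and MARCKS, a regulator of mucin granule release, 1.34-fold (1.86e-04). With STS_apoEV 6 rose, 1 fell and 17 did not pass (29.2% called, below the 32.8% of all genes, median 0.06), and 4 were called without STS_apoEV replicate 3. RAB27B, a secretory granule GTPase, rose 1.65-fold (adjusted p = 1.10e-08) and MARCKS 1.45-fold (1.26e-06), while UNC13D fell 3.30-fold (1.02e-14). Between the vesicle types 13 were higher and 2 lower with STS_apoEV (62.5% called).

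Of 17 genes for receptors, ligands and signalling factors known to induce mucin genes, all tested, 5 rose with DDP_apoEV, 3 fell and 9 did not pass (47.1% called, median 0.09). The interleukin-4 and interleukin-13 receptor chain gene IL4R rose to 16.9 ± 1.17 CPM in DDP_apoEV, against 7.78 ± 0.858 in control (2.17-fold, adjusted p = 1.75e-07). RELB, an NF-kB subunit gene, rose 2.00-fold (4.00e-08), and EREG, a ligand of the epidermal growth factor receptor, 1.77-fold (9.77e-05). With STS_apoEV 4 rose and 4 fell (47.1% called, median 0.10). IL4R rose 2.13-fold (adjusted p = 1.01e-07) and IL6R 1.74-fold (8.51e-06), and AREG, another ligand of the same receptor, fell 1.81-fold (3.15e-07). Between the vesicle types 6 were higher and 6 lower with STS_apoEV (70.6% called), among the lower EGFR itself at 63.1 ± 3.38 CPM in STS_apoEV and 114 ± 12.8 CPM in DDP_apoEV (adjusted p = 8.62e-10).

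**Figure D4:**
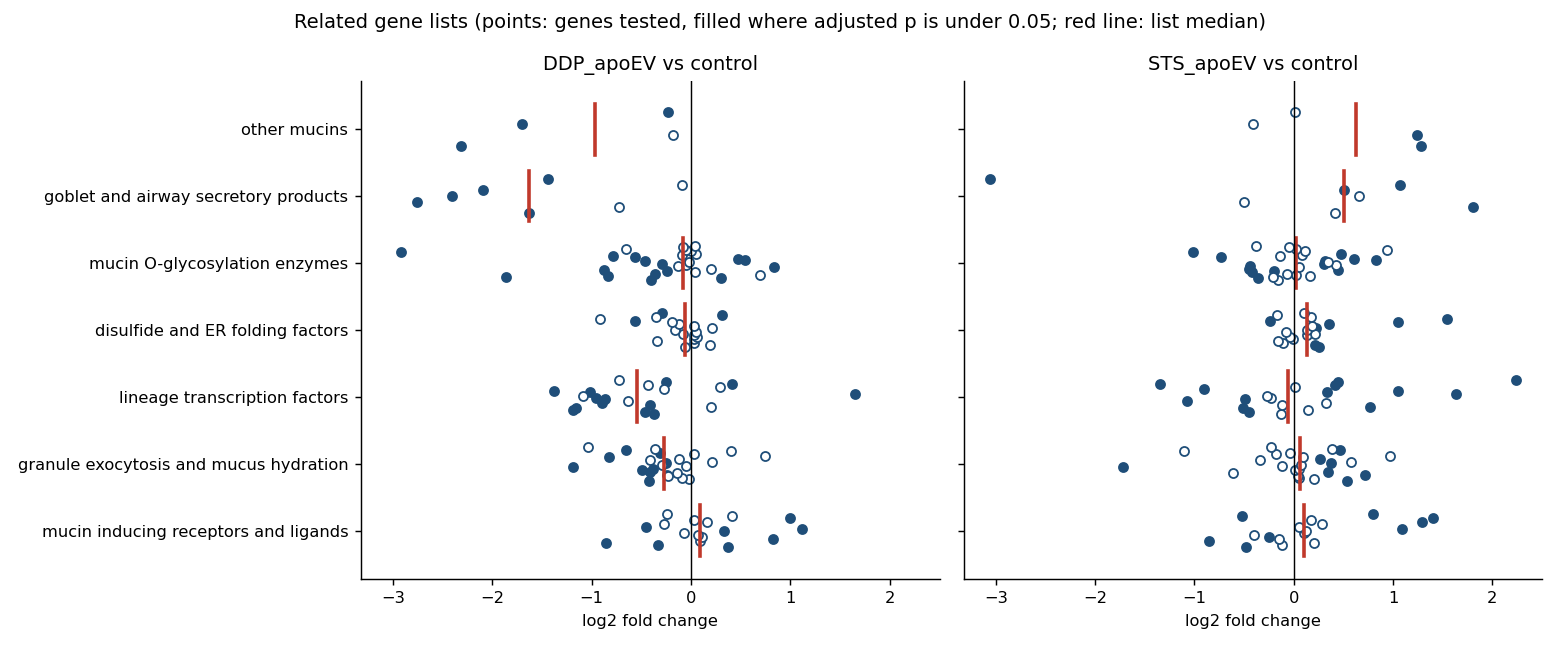
Log2 fold change (horizontal axes) of each tested gene in the 7 related lists, for DDP_apoEV and for STS_apoEV against control, filled where the adjusted p is under 0.05, with the list median as a red line. Secretory products have the lowest median with DDP_apoEV (−1.63). The enzyme, folding, and receptor and ligand lists have medians between −0.08 and 0.13 in both comparisons.

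Genes beside the secretory genes on their chromosomes were compared with them. TSPAN13, a tetraspanin gene beside AGR2, fell with DDP_apoEV (log2 fold change −0.71, adjusted p = 2.21e-07), and AHR, the nearest tested gene on the other side, was not called (log2 fold change −0.23, adjusted p = 0.0559). Beside MUC5B, TOLLIP was not called with DDP_apoEV (log2 fold change −0.24, adjusted p = 0.0826) and stood at 0.28 with STS_apoEV (0.0168), a call lost without STS_apoEV replicate 2 (0.139), control replicate 1 (0.0535) or control replicate 2 (0.124). THBS3, near MUC1, rose with STS_apoEV (log2 fold change 0.70, adjusted p = 3.11e-04) and was not called with DDP_apoEV (−0.40, adjusted p = 0.0736). The nearer TRIM46 (853 bases away) and THBS3-AS1 (2081 bases) and the farther KRTCAP2 were not called with STS_apoEV (−0.18, 0.84 and 0.10, adjusted p = 0.627, 0.117 and 0.726) or with DDP_apoEV (−0.31, 0.18 and −0.03). The nearest tested genes on either side of TCN1, MRPL16 at 42022 bases and CCDC86 at 975624 bases, were not called with DDP_apoEV (0.17 and 0.24, adjusted p = 0.199 and 0.0988) and fell with STS_apoEV (−0.31 and −0.65, adjusted p = 0.00666 and 7.56e-06), where TCN1 rose. The MRPL16 call was lost without STS_apoEV replicate 1 (adjusted p = 0.0554). STX3, beyond MRPL16 at 46918 bases from TCN1, rose with STS_apoEV (0.38, adjusted p = 4.56e-04) and was called lower with DDP_apoEV (−0.25, adjusted p = 0.0348), and the second call was lost with any 1 of the 6 libraries left out (adjusted p between 0.0559 and 0.146). The nearest tested genes of FOXA3, SYMPK and IRF2BP1, were not called with DDP_apoEV (0.05 and −0.04) or with STS_apoEV (−0.07 and −0.01). The nearest 2 tested genes on each side of SPDEF were not called against control with either vesicle type, with log2 fold changes of −0.13 to 0.52 with DDP_apoEV and −0.27 to 0.42 with STS_apoEV. Beside MUC13, ITGB5 was called lower with DDP_apoEV (−0.27, adjusted p = 0.0176), a call lost without DDP_apoEV replicate 1 (0.0854) or 3 (0.0967) or control replicate 1 (0.0972) or 3 (0.133), and HEG1 was not called (0.17, adjusted p = 0.575).

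**Figure D5:**
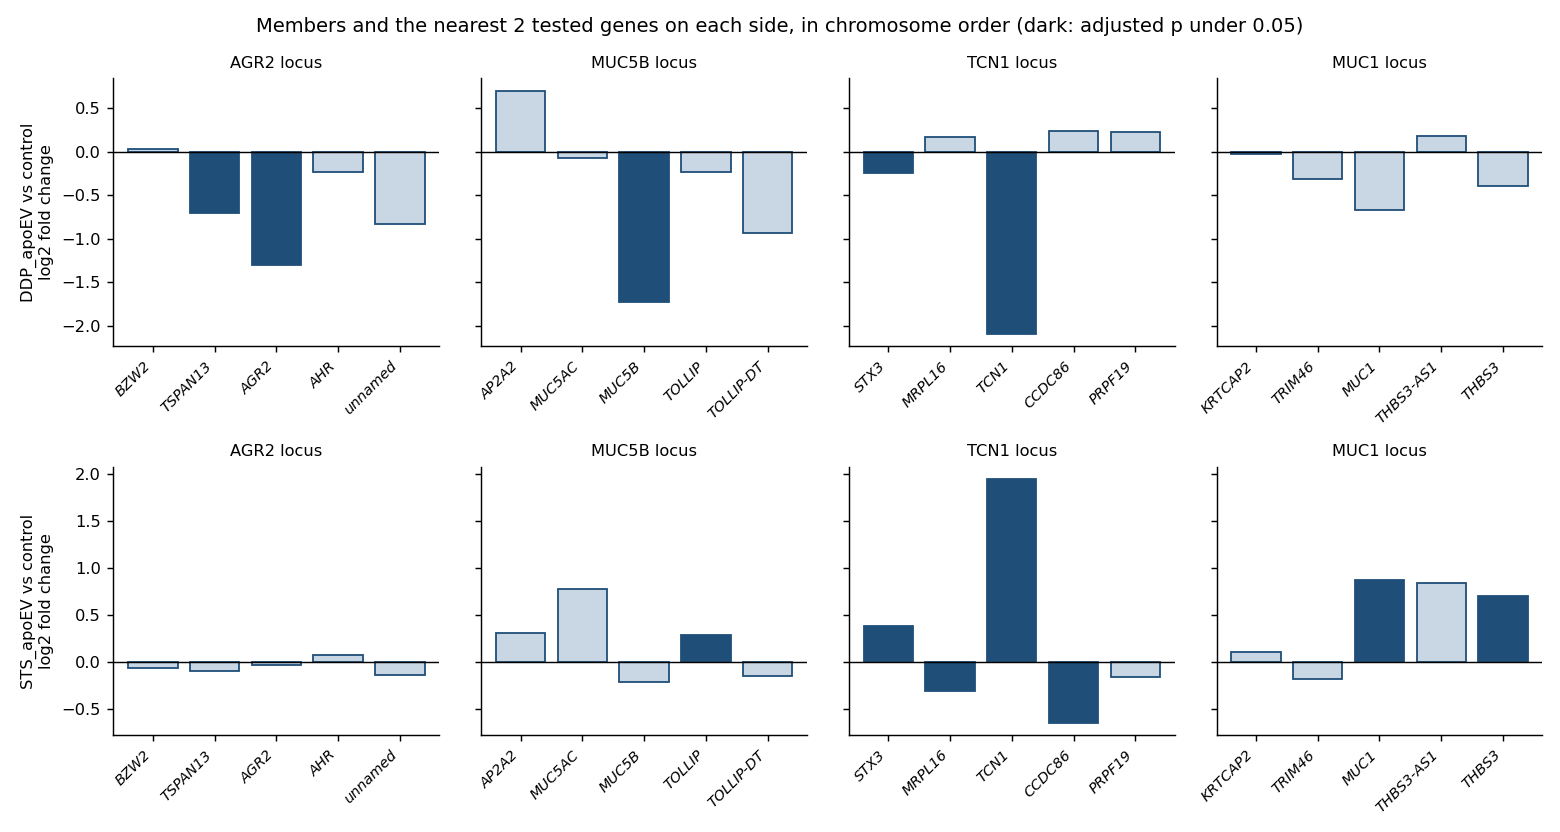
Log2 fold change (vertical axes) of AGR2, MUC5B, TCN1 and MUC1, each in the middle of its panel, and of the nearest 2 tested genes on each side in chromosome order, for DDP_apoEV (top) and STS_apoEV (bottom) against control, dark where the adjusted p is under 0.05. TSPAN13 (−0.71) is dark beside AGR2 (−1.30) with DDP_apoEV, and THBS3 (0.70) is dark near MUC1 (0.87) with STS_apoEV.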

How the data were processed

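The authors deposited whole-number read counts per gene and FPKM values for the same rows. HISAT2 2.0.5, StringTie 1.3.3b, featureCounts 1.5.0-p3, limma and the build hg38 are named, per the submitters' processing notes, without roles. Groups came from the sample titles. Symbols were matched to 61399 of 61552 Ensembl identifiers. The counts of all 9 libraries were fitted with edgeR 4.0.16 (R 4.3.3, TMM scaling, default filter, robust quasi-likelihood test, no covariates), and p-values were adjusted over the 16947 genes tested by the Benjamini-Hochberg method. The SE was taken from the F statistic and the log2 fold change. CPM values use TMM-scaled totals. The members and lists were chosen with earlier results of these data known. All members are named, and other genes are up to 4 called genes of smallest p per list and comparison, plus FOXA1, FOXA2 and chromosome neighbours. The library kit is not stated to keep the strand. MUC5B-AS1, which overlaps MUC5B on the other strand, had 0 counts in every library. Alternatives used other scaling, filters, DESeq2 1.42.0, limma 3.58.1 on log2(FPKM + 1) or log2(FPKM + 0.1), a replicate block, 2 groups only and each library left out.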

Additional observations from a re-analysis of the deposited data

How the results depend on the processing

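For the 9 tested genes and 3 comparisons, 391 of 413 alternative values kept their direction and side of the threshold, 13 lost a call, 1 gained one and 8 turned sign, those 8 in values that were not called. Leaving out 1 library gave log2 fold changes of −0.51 to 0.23 for MUC5AC with DDP_apoEV, −0.08 to 0.01 for AGR2 with STS_apoEV and −0.17 to 0.41 for FOXA3 between the vesicle types. The number of these genes called with STS_apoEV was 5, and ran from 3 to 5 with 1 library left out. It was 2 with limma on log2(FPKM + 1) or log2(FPKM + 0.1) at a mean FPKM of at least 1, and 2 without that filter. Of all genes, 2623 were called with DDP_apoEV, against 1617 with limma on log2(FPKM + 1), 1638 with log2(FPKM + 0.1) and 787 without the FPKM filter. That last setting called 3312 genes with STS_apoEV in place of 5552 and 4352 between the vesicle types in place of 6721. The cause was not tested. Of 2056 alternative values for 57 other genes 154 lost a call and 0 turned sign. These values were taken only in comparisons where the gene was called, so none could gain a call. Most of the 57 were picked for a small adjusted p, which leaves little room for a turn of sign. Deviations of same-numbered libraries of different groups had correlations of −0.0847 to 0.0547. The labels do not say whether the numbers mark a shared batch, and these values cannot tell. A replicate block called 2359, 5297 and 6429 genes in the 3 comparisons, and 7, 5 and 7 of the 9. The fewest counts lay behind MUC5AC, MUC16 and AGR3.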

Other observations

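Within the DDP_apoEV group most of the genes shared an order of libraries, a pattern described after its values were seen. Replicate 1 was the lowest of the 3 for 7 of the 9 tested genes and replicate 3 the highest for 7 of 9, where replicate 1 was lowest for 33.3% and replicate 3 highest for 32.6% of all genes tested. AGR2 shows it with 234, 242 and 340.3 CPM in DDP_apoEV replicates 1, 2 and 3, and SPDEF with 8.13, 12.4 and 15.3 CPM. FOXA3 was instead highest in replicate 2 and MUC5AC in replicate 1, and MUC16 had only 0, 0 and 3 counts. In control, replicate 3 was the highest for 6 of 9, and in STS_apoEV no library was the lowest for more than 3. The genes of a library share its cells and its preparation, so these counts are a description with no test.

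MUC5AC and MUC5B lie side by side and are both gel-forming mucins, but their levels differed widely. The level of MUC5B was 54.5 to 131 times that of MUC5AC in DDP_apoEV libraries, 110 to 207 times in STS_apoEV and 181 to 1190 times in control, the highest resting on 3 MUC5AC counts in control replicate 3.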
